A study of Homo sapiens with 4 samples.

Results

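The genes described here are the protein-coding genes whose names begin with IFI, OAS or ISG, or are MX1 or MX2, in a deposited table of 426 genes called as changed in MEG-01 cells, an established human line of megakaryoblasts labelled as producing platelet-like particles. Of the 426, 7 fit this, ISG15, OAS1, MX1, IFI44L, IFI6, IFI27 and IFIH1. The study compared 2 OGT-depleted libraries, labelled CR_OGT, with 2 WT libraries of the same line, all from total RNA of cells grown in RPMI1640 medium with 10% FBS and without a labelled stimulus. OGT adds the sugar O-GlcNAc to proteins of the nucleus and cytosol, and it was targeted with CRISPR/Cas9, per the series' design text, which calls it a knockdown. The sources used here do not say whether the OGT-depleted cells were 1 clone or a pool, or whether the WT cells carried Cas9 or a control guide. The labels do not say that replicates were separate cultures, so every spread below is that between 2 libraries and may be technical only.

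Interferon-stimulated genes are switched on when an interferon binds its receptor on the cell surface. The receptor's kinases JAK1 and TYK2 then switch on a complex of transcription factors that holds IRF9 and binds the interferon-stimulated response element in promoters. The products detect viral RNA, block its translation or copying, or modify other proteins, and many of these genes also have a low level in unstimulated cells of most tissues, blood lineages included.

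All 7 genes were higher in OGT-depleted cells, by 1.71-fold to 2.32-fold with a median of 2.01-fold. The genes were chosen by name from a table that was itself selected on the authors' adjusted p under 0.05 in these libraries, so the differences between OGT-depleted and WT cells below are a description of how the genes were chosen and not a test of them. The authors' deposited table gives adjusted p-values from 6.07e-08 for IFI27 to 0.0171 for IFIH1, the gene of the 7 nearest to the threshold, and the highest adjusted p in that table is 0.0497. Of about 13154 tested genes 1.89% were called higher in the authors' deposited table. RefSeq holds 29 protein-coding genes that the same names take in, and the other 22, among them the 5 IFIT genes, the 5 IFITM genes, OAS2, OAS3, OASL, MX2 and IFI44, are not analysed here, so nothing is known of their levels.

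The promoters of the 5 genes with the highest folds are shown. They were searched for letters that the interferon-activated complex and related factors are known to read. The sequences are RefSeq promoter windows on GRCh38.p14, each 250 bases before to 50 bases after a gene start, written 5′ to 3′ on the gene's strand. Capitals mark matches, on either strand, to the core of the interferon-stimulated response element (GAAA, any 2 bases, GAAA) and to a variant with 1 base between the GAAA blocks (GAAANGAAA).
ISG15, chr1:1013247-1013546, plus strand: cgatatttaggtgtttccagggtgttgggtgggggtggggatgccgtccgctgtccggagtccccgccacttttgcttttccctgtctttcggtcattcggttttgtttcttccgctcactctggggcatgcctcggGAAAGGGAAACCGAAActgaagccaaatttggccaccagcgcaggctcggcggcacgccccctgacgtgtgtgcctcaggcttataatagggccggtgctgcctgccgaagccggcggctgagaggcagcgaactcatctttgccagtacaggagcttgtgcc
OAS1, chr12:112906712-112907011, plus strand: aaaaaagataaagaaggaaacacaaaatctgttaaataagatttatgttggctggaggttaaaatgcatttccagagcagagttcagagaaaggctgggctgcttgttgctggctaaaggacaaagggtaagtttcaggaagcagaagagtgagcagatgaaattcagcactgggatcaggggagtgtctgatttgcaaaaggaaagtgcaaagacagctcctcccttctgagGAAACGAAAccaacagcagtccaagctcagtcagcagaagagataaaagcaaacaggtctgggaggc
MX1, chr21:41420308-41420607, plus strand: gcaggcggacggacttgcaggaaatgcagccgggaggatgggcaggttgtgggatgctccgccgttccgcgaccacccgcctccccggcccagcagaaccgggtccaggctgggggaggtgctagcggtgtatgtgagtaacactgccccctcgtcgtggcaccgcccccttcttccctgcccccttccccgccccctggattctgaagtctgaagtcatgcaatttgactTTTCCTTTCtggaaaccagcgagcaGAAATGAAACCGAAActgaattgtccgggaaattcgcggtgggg
IFI44L, chr1:78620198-78620497, plus strand: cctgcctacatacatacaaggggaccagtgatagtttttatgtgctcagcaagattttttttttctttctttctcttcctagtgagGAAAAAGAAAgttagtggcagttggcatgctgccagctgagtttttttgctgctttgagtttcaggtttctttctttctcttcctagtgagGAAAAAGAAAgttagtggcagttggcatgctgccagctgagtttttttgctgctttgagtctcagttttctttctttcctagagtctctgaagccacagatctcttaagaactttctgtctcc
IFI6, chr1:27672143-27672442, minus strand: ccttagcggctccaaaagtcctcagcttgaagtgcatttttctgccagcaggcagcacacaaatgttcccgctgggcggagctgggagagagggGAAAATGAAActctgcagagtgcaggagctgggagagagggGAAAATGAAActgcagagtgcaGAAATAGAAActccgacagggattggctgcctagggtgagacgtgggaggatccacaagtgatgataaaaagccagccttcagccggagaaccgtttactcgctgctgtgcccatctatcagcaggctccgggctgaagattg

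The response element core occurred in at least 1 promoter window of 6 of the 7 genes, ISG15, MX1, IFI44L, IFI6, IFI27 and IFIH1. Over all RefSeq genes with a promoter window it occurred in 4.38% (1195 of 27305), and among 35116 windows in 3.57%. Both strands were searched, and overlapping matches were counted. All 7 genes had at least 1 window and 2 had several, MX1 with 3 and IFI27 with 2 that overlap, which made 10 windows with 14 distinct matches. In ISG15 both matches overlapped, from 113 to 98 bases before the start. IFI6 held 3 matches, 2 of them in an exact repeat of 29 bases spaced by 41 bases, and both matches of IFI44L lay in an exact repeat of 85 bases spaced by 91 bases. IFIH1 had 3 matches, 2 of them overlapping and on the opposite strand. The MX1 window shown had its match after the start, at bases 12 to 21 of the transcript.

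The OAS1 window held no such core but had 1 GAAANGAAA, at 17 to 9 bases before the start. That variant was added after the OAS1 and MX1 sequences had been seen, and it occurred in 2 of the 7 genes and in 3.87% of all RefSeq genes with a promoter. Among genes of the same names outside the table, 5 of 16 with a window held it. The shares were 4.22% of other higher listed protein-coding genes and 1.72% of lower ones. TTCNNNGAA, the core of the gamma-activated site, occurred in 3 of the 7, OAS1, MX1 and IFI27, against 9.38% of all RefSeq genes. It also occurred in 12 of 166 other higher listed protein-coding genes (7.23%) and 15 of 116 lower ones (12.9%). Of 16 genes of the same names outside the table, 2 held it. In IFI27 it overlapped a response element core in both windows, and in MX1 in 1 window.

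Among listed genes outside the 7, the response element core occurred in 9 of 166 other higher protein-coding genes with a window (5.42%) and in 3 of 116 lower ones (2.59%). LGALS3BP was among those 9 and ERAP2 among those 3, both interferon genes described below. Among genes of the same names that are outside the table, 8 of 16 with a window held the core. A name does not show that each of those genes is induced by interferon. The names IFI and ISG refer to that induction, and the OAS and MX genes were chosen as interferon-stimulated too. The share among the 7 is therefore a property of that choice as well. A match is a string of letters, and binding at these sites was not measured here.

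**Figure D1:**
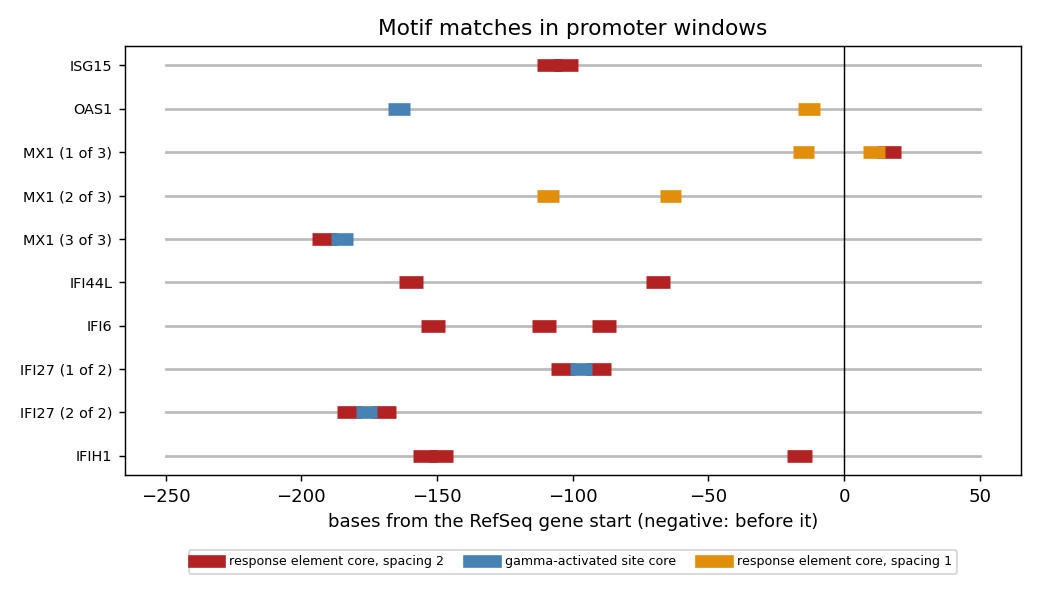
Positions of motif matches in the RefSeq promoter windows of the 7 genes, in bases from the gene start on the horizontal axis; each grey line is 1 window and each coloured block 1 match on either strand. All but 1 of the response element cores with 2 bases between the GAAA blocks lie within 200 bases before the start, and OAS1 has only the variant with 1 base between them and a gamma-activated site core.

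OGT itself was lower in the OGT-depleted libraries, with 9124 and 12185 normalized read counts, against 16012 and 19190 in the WT libraries. A normalized read count is the deposited count divided by a size factor per library. On the log2 scale that was a change of -0.72 ± 0.16 (SE, 2 libraries in each group). OGT passed edgeR's test (adjusted p = 0.0327) but not without WT replicate 1 (0.135) or WT replicate 2 (0.658). The libraries held 17643474 to 19883586 counted reads, and the listed genes held 3.97% to 4.26% of them. Of 15 megakaryocyte markers, 2 were in the table, the platelet tubulin gene TUBB1, which was higher, and the thrombin receptor gene F2R, which was lower. The others, such as ITGA2B and GP9, are not analysed here, so the cell type on the label could not be checked further.

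Together the 7 genes took 388 and 358 reads per 1000000 counted reads in the OGT-depleted libraries, against 189 and 189 in the WT libraries. The sum was thus higher in both OGT-depleted libraries than in either WT library. IFI27 alone supplied 49.2% and 50.5% of these reads in OGT-depleted cells, against 51.6% and 51.8% in WT cells. In bulk RNA more cells with the transcripts and more transcript per cell cannot be told apart.

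Among the genes IFIH1 encodes MDA5, a helicase that binds long double-stranded RNA in the cytosol and starts interferon production. IFIH1 (ENSG00000115267, chromosome 2, 163123589 to 163175213, hg19, minus strand) had 388 and 361 normalized counts in OGT-depleted cells, against 217 and 222 in WT cells. The lower OGT-depleted library was 1.62 times the higher WT library, so the groups did not overlap. IFIH1 had the lowest fold of the 7, at 1.71-fold, or 0.77 ± 0.15 on the log2 scale (SE, from 2 libraries a group). Its per-length level was 5.65 ± 0.122 FPKM in OGT-depleted cells and 3.27 ± 0.190 FPKM in WT cells (SD, n = 2).

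ISG15 encodes a ubiquitin-like protein that is joined to other proteins after interferon and is also secreted. ISG15 (ENSG00000187608, chromosome 1, 948803 to 949920, plus strand) had 804 and 594 normalized counts in OGT-depleted cells, against 320 and 282 in WT cells. Both OGT-depleted libraries were above both WT libraries, with replicate 1 the higher in each group. It had the highest fold of the 7, at 2.32-fold, a log2 fold change of 1.22 ± 0.17 (SE). That value was 0.98 without OGT-depleted replicate 1 and 1.42 without OGT-depleted replicate 2. On the per-length scale ISG15 stood at 53.2 ± 9.75 FPKM in OGT-depleted cells and 22.6 ± 1.11 FPKM in WT cells (SD, n = 2).

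OAS1 and MX1 encode enzymes that act against viral RNA and viral particles. OAS1 makes oligoadenylates when it binds double-stranded RNA, which set off the breakdown of RNA in the cell. OAS1 (ENSG00000089127, chromosome 12, 113344582 to 113369990, plus strand) had 223 and 246 normalized counts in OGT-depleted cells, against 107 and 108 in WT cells. Its groups stood farthest apart of the 7, the lower OGT-depleted library being 2.06 times the higher WT library, and its fold was 2.18. It was also the gene with the fewest reads, 102 to 257 per library. The log2 fold change was 1.12 ± 0.17 (SE).

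MX1 encodes a dynamin-like GTPase that binds viral ribonucleoproteins, best known for blocking influenza virus. MX1 (ENSG00000157601, chromosome 21, 42792231 to 42831141, plus strand) had 288 and 320 normalized counts in OGT-depleted cells, against 131 and 166 in WT cells. Replicate 2 was the higher in each group, and the groups did not overlap. The fold was 2.05, a log2 fold change of 1.04 ± 0.18 (SE), which was 1.22 without WT replicate 2 and 0.87 without WT replicate 1. MX1 had the lowest per-length level of the 7 in both groups, 4.76 ± 0.495 FPKM in OGT-depleted cells and 2.29 ± 0.476 FPKM in WT cells (SD, n = 2).

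IFI27 and IFI6 are related genes for small hydrophobic proteins found at mitochondria and other membranes. IFI27 (ENSG00000165949, chromosome 14, 94571182 to 94583033, plus strand) had 3600 and 3266 normalized counts in OGT-depleted cells, against 1877 and 1776 in WT cells. It had the highest level of the 7 on either scale, and its fold was 1.88, a log2 fold change of 0.91 ± 0.12 (SE). IFI6 (ENSG00000126709, chromosome 1, 27992572 to 27998729, minus strand) had 1176 and 851 normalized counts in OGT-depleted cells, against 562 and 470 in WT cells. Here the lower OGT-depleted library was 1.51 times the higher WT library, the smallest gap of the 7. The fold of IFI6 was 1.96, a log2 fold change of 0.97 ± 0.17 (SE), which was 0.72 without OGT-depleted replicate 1 and 1.19 without OGT-depleted replicate 2.

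IFI44L, a close relative of the antiviral gene IFI44, lies on chromosome 1 (ENSG00000137959, 79085607 to 79108484, plus strand). It had 837 and 832 normalized counts in OGT-depleted cells, against 424 and 407 in WT cells. Its replicates lay closest together in the OGT-depleted group, with 835 ± 3.87 against 416 ± 12.4 in WT (SD, n = 2). The fold was 2.01 and the log2 fold change 1.01 ± 0.13 (SE), and leaving out each library in turn gave 0.98 to 1.04.

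**Figure D2:**
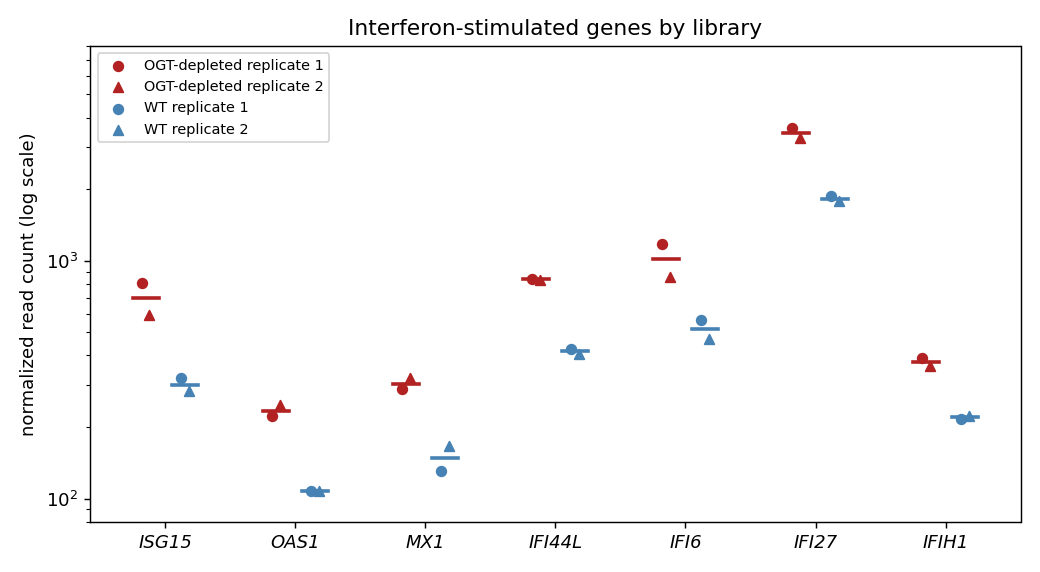
Normalized read counts of the 7 genes (log scale) in each library, OGT-depleted in red and WT in blue, with circles for replicate 1, triangles for replicate 2 and bars for the mean of 2 libraries. For each gene both OGT-depleted libraries lie above both WT libraries, from ISG15 with 804 and 594 against 320 and 282 to IFIH1 with 388 and 361 against 217 and 222.

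The per-length order of the genes was nearly the same in both groups. In OGT-depleted cells it ran from IFI27 (76.5 FPKM) over IFI6 (65.1), ISG15 (53.2), IFI44L (8.78), OAS1 (6.40) and IFIH1 (5.65) to MX1 (4.76), and in WT cells from IFI27 (40.2) over IFI6 (32.7), ISG15 (22.6), IFI44L (4.31), IFIH1 (3.27) and OAS1 (2.90) to MX1 (2.29). Only OAS1 and IFIH1 changed places. In OGT-depleted cells the replicates of IFI6 (74.2 and 56.0 FPKM) overlapped those of ISG15 (60.1 and 46.3), and IFI27 (78.6 and 74.4) lay just above IFI6. The highest gene was 16.1 times the lowest in OGT-depleted cells and 17.5 times the lowest in WT cells. The genes of small proteins, IFI27, IFI6 and ISG15, thus formed a high group, and IFI44L, OAS1, IFIH1 and MX1 a low one.

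A fit over all 426 listed genes called each of the 7 higher in OGT-depleted cells (edgeR's quasi-likelihood test, Benjamini-Hochberg adjustment over 13154 genes, adjusted p from 0.00236 to 0.0178). Of all listed genes 50.2% were called higher in that fit, and since the same libraries put the genes in the table the count is given without a reading. Likewise both OGT-depleted libraries were above both WT libraries in each of the 7, which held for 58.2% of listed genes; in the rest of them both were below. The median log2 fold change was 1.01 over the 7, 0.56 over all listed genes and 0.90 over the 248 higher ones. By fold the 7 ranked from 58 for ISG15 to 157 for IFIH1 among those 248, and 4 of them reached 2-fold, as did 109 of the 248. All 7 stayed higher in each of 11 alternative settings, with log2 fold changes of 0.28 to 1.42. Since the groups of each gene did not overlap, leaving out a library could not change that direction. Dropping the filter on low counts or adjusting over the listed genes alone left the fold changes as reported. Without WT replicate 2 the log2 fold changes of the 7 were 0.79 to 1.22, and the calls of all 7 were lost. Without WT replicate 1 they were 0.75 to 1.31, and the calls of OAS1, MX1 and IFIH1 were lost. Both of these fits rest on a single WT library. Size factors computed by DESeq2 on the listed genes shifted all of them by a median of -0.49 on the log2 scale, and ISG15 alone kept its call there, while TMM factors computed on them ended the call of IFIH1 (adjusted p = 0.128).

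**Figure D3:**
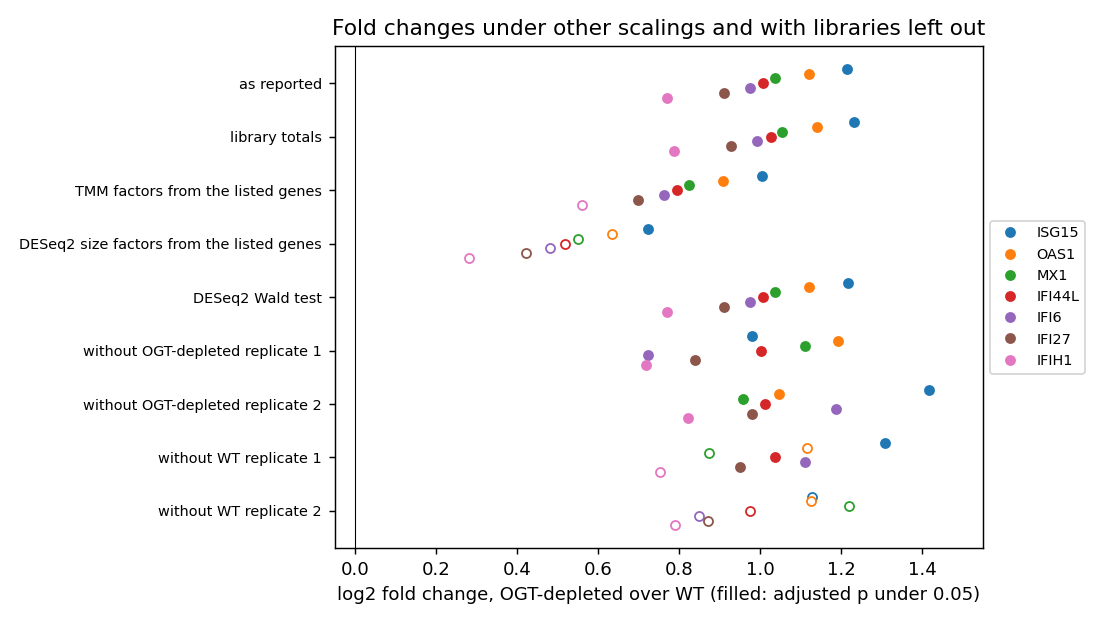
Log2 fold changes (OGT-depleted over WT) of the 7 genes on the horizontal axis, 1 colour per gene, filled where the adjusted p was under 0.05. Rows are the reported fit, other scalings, DESeq2's Wald test and each library left out. Not drawn are the fits without a filter on low counts, with adjustment over the listed genes alone, and with replicate number as a block. All values are above 0, the lowest being 0.28 for IFIH1 when DESeq2 computed size factors on the listed genes, and no point is filled without WT replicate 2.

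The other genes of the pathway were taken from a list of 121 interferon genes by role, written with earlier results of these data known. Of these, 5 were in the table and all 5 were called, 4 higher and 1 lower in OGT-depleted cells, where 50.2% of listed genes were called higher and 31.9% lower. No ligand (of 10), receptor or kinase (of 9), transcription factor (of 13), sensor or adaptor (of 17) or negative regulator (of 7) was in the table. JAK1, IRF9, USP18 and DDX58 are therefore not analysed here.

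In the list's group for conjugation of ubiquitin-like proteins, 1 of 5 genes was in the table. HERC6, a HECT-domain ligase that in mouse joins ISG15 to its targets, had 322 and 341 normalized counts in OGT-depleted cells, against 170 and 207 in WT cells, a log2 fold change of 0.82 ± 0.16 (SE). Of 46 other effectors, 3 were in the table, all higher. GBP2, an interferon-induced guanylate-binding protein, had 392 and 340 in OGT-depleted cells, against 223 and 207 in WT cells, a fold of 1.70. The secreted glycoprotein gene LGALS3BP had 875 and 866 in OGT-depleted cells, against 509 and 560 in WT cells, a fold of 1.63. LY6E, a membrane-anchored protein that restricts coronavirus entry, had 7834 and 6552 in OGT-depleted cells, against 4868 and 4207 in WT cells, a fold of 1.59. LY6E lies on chromosome 8, where 19 of 25 listed genes (76.0%) were higher, against 58.2% of all listed genes. The part of that position in the result was not tested. In all 4 genes both OGT-depleted libraries were above both WT libraries, which held for 58.2% of listed genes, and in the rest both were below.

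ERAP2 went the other way. It encodes an aminopeptidase that trims peptides for MHC class I, and it was the member of the 14 antigen presentation genes in the table. It had 139 and 128 normalized counts in OGT-depleted cells, against 257 and 236 in WT cells, and so was at 54.3% of WT. On the log2 scale that was -0.88 ± 0.17 (SE). All 5 list genes lost their call without WT replicate 1 and without WT replicate 2 (adjusted p from 0.0863 to 0.451), and GBP2 also without OGT-depleted replicate 1 (0.0579). With TMM or DESeq2 factors computed on the listed genes ERAP2 alone of the 5 was called.

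**Figure D4:**
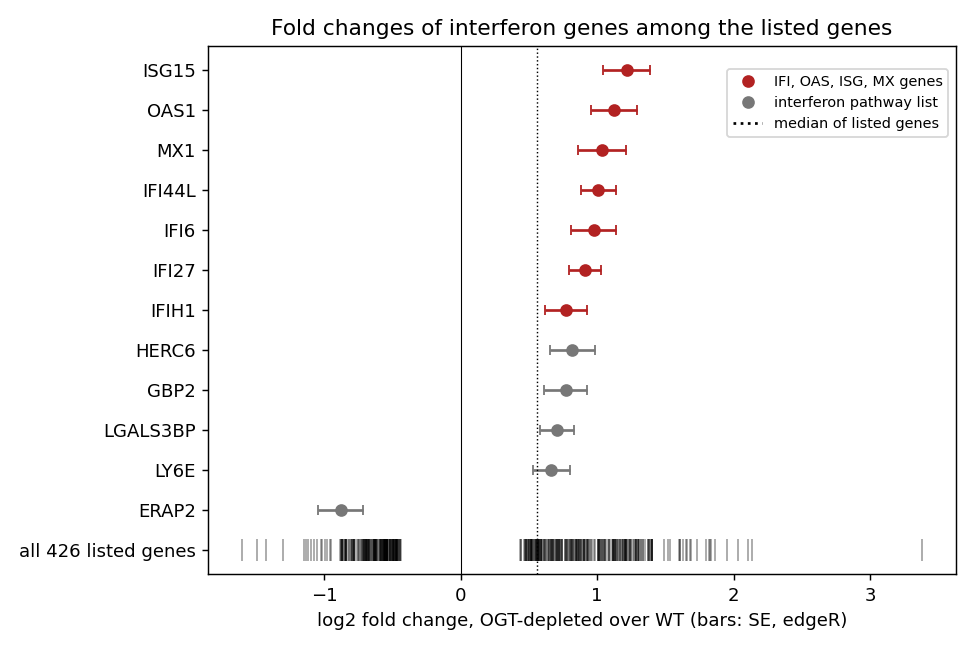
Log2 fold changes, OGT-depleted over WT, with SE bars from edgeR (n = 2 per group) for the 7 genes in red and the 5 pathway list genes in grey, above a row of ticks for all 426 listed genes; the dotted line is their median of 0.56. ISG15 is highest at 1.22, and ERAP2 at -0.88 is the single pathway gene below 0.

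The members lay on 5 chromosomes, with 3 of them on chromosome 1, where 17 listed genes were higher and 26 lower. Higher and lower listed genes numbered 12 and 14 on chromosome 2 (IFIH1) and 8 and 5 on chromosome 12 (OAS1). They numbered 5 and 3 on chromosome 14 (IFI27) and 7 and 3 on chromosome 21 (MX1). The part of position in the result was not tested. In the RefSeq gene order, OAS1 is next to OAS3, MX1 to MX2, IFI44L to IFI44 and IFI27 to both IFI27L1 and IFI27L2. None of the genes next to any of the 7 was in the table. GENCODE 29 has a gene on the opposite strand overlapping OAS1, IFI6, MX1 and ISG15, and the strand setting of the counting is not given, so reads of those pairs cannot be told apart.

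Deposited lengths of the 7 genes ran from 711 bases for ISG15 to 5152 for IFI44L, with a median of 2430, against 3538 for all listed genes and 3056 for the higher ones. Of the 7, 5 were shorter than the median of all listed genes, while IFIH1 (3595 bases) and IFI44L were longer. Replicates differed with length. Replicate 1 over replicate 2 was 1.35 for ISG15 (711 bases) and 1.38 for IFI6 (841 bases) in OGT-depleted cells, against 1.13 and 1.20 in WT cells, while IFI44L (5152 bases) had 1.01 in OGT-depleted cells and 1.04 in WT cells. Across all 426 listed genes, Spearman's rho between length and this ratio was -0.55 in OGT-depleted cells and -0.40 in WT cells. Across the 7 genes it was -0.57 and -0.64. Genes are not independent replicates, they share the 4 libraries, and the part of length in the differences between groups was not tested.

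**Figure D5:**
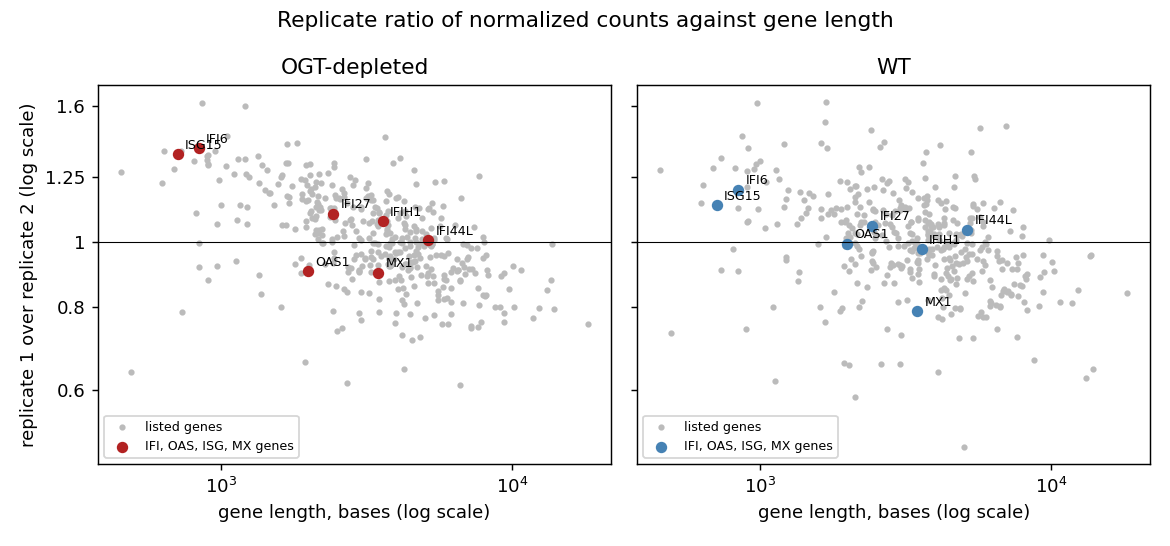
Ratio of normalized counts in replicate 1 over replicate 2 (log scale) against deposited gene length in bases (log scale), in OGT-depleted cells on the left and WT cells on the right, with all 426 listed genes in grey and the 7 genes in colour. The shortest of the 7, ISG15 and IFI6, have the highest ratios in both groups.

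Markers of other blood cells in the table moved both ways beside these genes. No gene of the plasmacytoid dendritic cell (of 5) or B cell (of 4) markers was in the table. Of 7 T and NK cell markers, GZMA was in the table, with 132 and 97.8 normalized counts in OGT-depleted cells, against 22.1 and 29.9 in WT cells. Of 7 monocyte and macrophage markers, ITGAM was in the table, with 3141 and 3425 in OGT-depleted cells, against 4297 and 4628 in WT cells. ITGAM did not pass edgeR's test (adjusted p = 0.0859). Of 8 erythroid markers, HBE1 was in the table, with 3349 and 2563 in OGT-depleted cells, against 1034 and 748 in WT cells. Of 6 mast cell markers, 4 were in the table. TPSAB1 was 3.86-fold, TPSB2 3.21-fold and CPA3 2.29-fold higher in OGT-depleted cells, and reads of the near-identical TPSAB1 and TPSB2 may be split wrongly between them. FCER1A was lower, with 3203 and 2825 in OGT-depleted cells, against 5492 and 4418 in WT cells. The 4 summed to 3983 and 3454 in OGT-depleted cells, against 5696 and 4633 in WT cells, most of it FCER1A. No listed marker was at 0, the level of the others is not analysed here, and their part in the interferon genes was not tested.

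The protein-coding listed genes most like the 7, outside them and outside the pathway list, were looked for by a distance. It was taken between log2 normalized counts over the 4 libraries, each gene centred on its own mean, and the mean profile of the 7. The nearest 5 were PPP2R3B at 0.053, CDC42EP4 at 0.074, SELENBP1 at 0.10, ZNF334 at 0.11 and FAM174B at 0.11 log2 units. Among the 7 themselves the distance ran from 0.084 for IFI44L to 0.33 for MX1. PPP2R3B, a regulatory subunit of protein phosphatase 2A, had 988 and 873 normalized counts in OGT-depleted cells, against 460 and 468 in WT cells, a fold of 2.01. With 4 libraries in 2 groups such a profile is little more than the fold and the replicate difference.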

How the data were processed

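RNA of 2 OGT-depleted and 2 WT MEG-01 libraries was prepared with the NEBNext Ultra RNA Prep Kit, per the labels' protocols. The submitters' processing notes name CASAVA 1.8, STAR 2.5, TopHat, DESeq2 and hg19 with no role; of the read counter, annotation and strand setting nothing is stated. The authors deposited raw counts of called genes, FPKM values by gene length and counted reads, group means (a normalized signal, counts over size factors), log2 fold changes, p-values and adjusted p-values, per the file headers. The deposited log2 fold changes are shrunken: each is nearer to 0 than the ratio of the deposited means. Treated columns are headed OGTi and were taken as the CR_OGT group, since together they give the deposited CR_OGT mean. Within the group they were matched to the titles by number, which that mean does not check. If OGTi named another treatment, the comparison would be of that one.

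Library totals (17643474 to 19883586 reads) were recovered from the FPKM values, size factors (0.950 to 1.06) from the group means, and the number of tested genes (13154) from the adjusted p-values. Counts were fitted with edgeR 4.0.16 (glmQLFit, glmQLFTest) in R 4.3.3, library sizes proportional to those factors, over the 426 genes, which all passed filterByExpr. Adjusted p-values treat unlisted genes as not passing, and dispersions come from genes selected as changed (common coefficient of variation 9.90%). An SE is the absolute log2 fold change divided by the root of the F statistic. The script was tested on simulated data. Alternatives were other scalings, DESeq2 1.42.0, no filter, adjustment over listed genes alone, each library left out and a replicate block. Named genes are the 7, the pathway list genes in the table, OGT, cell type markers and the 5 nearest profiles. Members, lists and tests were chosen with earlier results of these data known. Replicates differed by more than counting noise (chi-square per gene 25.2 in OGT-depleted and 13.5 in WT cells).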

Additional observations from a re-analysis of the deposited data

How the results depend on the processing

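Leaving out a library could not reverse a gene whose groups did not overlap. The 7 interferon-stimulated genes, all of this kind, kept a positive log2 fold change in all 11 alternatives. They numbered 7 called with library totals, DESeq2's Wald test, no filter on low counts and adjustment over the listed genes alone, 6 with TMM factors computed on the listed genes (without IFIH1), 1 with DESeq2's factors computed on them, and 0 with the replicate number as a block; with libraries left out they ranged from 0 to 7. The pathway list genes called were 5 in the reported fit, 1 with those TMM factors, 1 with those DESeq2 factors, 0 with the block and 0 to 5 with libraries left out. Of the listed genes, 350 were called, 214 higher and 136 lower (61.1% higher); with those TMM factors 135 were higher and 178 lower (43.1%), and with those DESeq2 factors 77 and 178 (30.2%). Both scalings shifted the median of listed genes, by -0.21 and -0.49 on the log2 scale, and their factors come from genes chosen as changed. With the replicate block 0 were called, 0 higher and 0 lower, while 426 had an unadjusted p under 0.05 in that edgeR fit; the 7 had adjusted p-values of 0.0629 to 0.0812. DESeq2's Wald test without the block called 245 higher and 176 lower. Leaving out libraries gave 37 to 345 calls, 32 to 223 higher and 5 to 122 lower, with 37 without WT replicate 2. Deviations of same-numbered replicates correlated at 0.50 across genes, but the labels do not tie the numbers to a culture or day. The cause of these losses was not tested.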
